A study of Mus musculus with 12 samples.

Results

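The atrial cardiomyocyte genes described here are 5 genes of atrial muscle, Nppa, Sln, Myl4, Myl7 and Bmp10, chosen by name among the 55401 gene IDs counted in every library of a mouse heart study. All 5 had 1 row in each count table, and all 5 passed the filter on low counts that left 6596 genes for testing. Nppa, Sln, Myl4 and Myl7 had at least 18 counts in every library. Bmp10 passed through its counts in total heart RNA, since 5 of 6 pulldown libraries held none, so it had to be lower in the pulldown to be tested at all. The study applied Nano-TRAP, a ribosome pulldown read out by nanopore sequencing of complementary DNA, to hearts of adult WT mice and of adult mice with the genotype Rpl3l-/- (KO), which lack the muscle paralog of ribosomal protein L3. Each genotype had 3 Input libraries (total heart RNA) and 3 IP libraries (RNA bound to ribosomes caught with an anti-HA antibody), described as biological triplicates. IP hearts were exposed to cycloheximide when taken out and their RNA was cleaned on RNeasy columns, while Input RNA was prepared with TRIzol, and both were selected for poly(A). The effects of the fraction and of the RNA purification therefore cannot be told apart. The labels do not give the allele, promoter or cell type that carries the HA tag, whether the fractions of 1 replicate number came from the same heart, the age beyond adult, or whether atria were kept or trimmed.

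Adult heart chambers differ in their muscle genes. Atrial cardiomyocytes store and secrete atrial natriuretic peptide, encoded by Nppa, and build their thick filaments with light chains of their own, Myl7 (regulatory) and Myl4 (essential), where ventricular cells use Myl2 and Myl3. They also make sarcolipin (Sln), a small membrane protein that slows the calcium pump of the sarcoplasmic reticulum as phospholamban (Pln) does in the ventricle, and BMP10, a ligand of the bone morphogenetic protein family that in the adult comes mainly from the right atrium.

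The 5 genes lie on 4 chromosomes of mouse build GRCm38. Nppa (ENSMUSG00000041616.9) is at chr4:148000722-148002079 on the plus strand, and its longest coding transcript has 3 exons and 865 nt. Nppb, the gene of the related B-type natriuretic peptide, ends 13517 bp before it on the same strand. Sln (ENSMUSG00000042045.6) is at chr9:53850164-53854560, plus strand, with 2 exons and 1318 nt. Myl4 (ENSMUSG00000061086.12) is at chr11:104550663-104595753, plus strand, with 8 exons and 943 nt, and Myl7 (ENSMUSG00000020469.8) is on the same chromosome at chr11:5896637-5898782, minus strand, with 7 exons and 590 nt. Bmp10 (ENSMUSG00000030046.6) is at chr6:87428994-87437677, plus strand, with 2 exons and 4490 nt. Genes annotated on the opposite strand overlap Nppa (1 gene) and Myl4 (4 genes), and all of them had 0 counts in all 12 libraries.

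The stretches of 250 bases before the RefSeq start of Nppa and of Myl7 are shown. Both genes were lower in IP than in Input in both genotypes, though by different amounts. Each stretch carries its own mix of the short motifs read by cardiac transcription factors. They come from RefSeq, build GRCm38.p6, at chr4:148000472-148000721 (plus strand) and chr11:5898783-5899032 (minus strand), and capitals mark the motif matches.
Nppa: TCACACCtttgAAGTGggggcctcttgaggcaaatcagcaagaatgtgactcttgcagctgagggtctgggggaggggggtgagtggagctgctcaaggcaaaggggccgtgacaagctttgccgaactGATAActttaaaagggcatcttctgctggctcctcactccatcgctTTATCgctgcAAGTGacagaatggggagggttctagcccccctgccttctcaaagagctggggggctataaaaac
Myl7: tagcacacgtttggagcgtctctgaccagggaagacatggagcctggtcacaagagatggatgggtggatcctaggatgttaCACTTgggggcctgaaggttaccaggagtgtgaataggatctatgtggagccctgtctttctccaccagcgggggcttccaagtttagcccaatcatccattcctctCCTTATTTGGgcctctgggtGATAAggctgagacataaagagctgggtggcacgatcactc
The motifs searched on both strands were GATAA (GATA factors), AAGTG (NKX2-5), GGTGTGA (T-box factors) and the CArG box (serum response factor). The Nppa stretch held 2 GATAA, 2 AAGTG and 1 GGTGTGA match, and the Myl7 stretch held 1 GATAA match, 1 AAGTG match and 1 CArG box. In the same window Myl4 held 1 AAGTG match only and Bmp10 held 2 GATAA matches only, with no match of the other 3 motifs in each. Among 32851 windows of the same length, 22.6% held GATAA, 40.7% AAGTG, 3.33% GGTGTGA and 1.47% a CArG box. No single motif was present in all 4 stretches read, and a match is a description of the letters, not of a bound site.

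Library totals ran from 169359 counts (KO Input replicate 3) to 710868, so that 3 counts stand for 4.22 to 17.7 CPM (counts scaled by library size). Globin transcripts took 1.70% to 17.3% of a library, the most in WT IP replicate 2, followed by WT Input replicate 3 at 13.8%. The targeted gene, Rpl3l, matched the labels, with 156 to 182 counts in WT IP libraries and 1, 2 and 5 in KO IP, and a log2 fold change (KO over WT) of -5.84 in IP and -2.46 in Input (edgeR's quasi-likelihood test, Benjamini-Hochberg adjusted p = 9.17e-12 and 1.77e-05). The labelled tissue was checked with ventricular genes: Myl2, the ventricular regulatory light chain, took 2457 to 10873 counts in each library.

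Together the 5 atrial genes took 0.666% ± 0.0622 (SD, n = 3) of the counts in WT Input and 0.918% ± 0.122 in KO Input, but only 0.0636% ± 0.0426 in WT IP and 0.0678% ± 0.0323 in KO IP. By library the shares were 0.607%, 0.660% and 0.731% in WT Input and 0.849%, 1.06% and 0.846% in KO Input. In the pulldown they were 0.0392%, 0.0388% and 0.113% for WT and 0.0967%, 0.0737% and 0.0330% for KO. The highest IP library was therefore below the lowest Input library by a wide margin. The cause of the lower IP shares was not tested. Between Input libraries, which are bulk heart RNA, fewer atrial cells and less RNA per atrial cell cannot be told apart.

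In both genotypes each of the 5 genes was lower in ribosome-bound RNA than in total RNA, with no overlap between the 3 IP and the 3 Input libraries for any of them. The fall was past the threshold (adjusted p under 0.05) for 5 of 5 in WT, where 8.67% of all tested genes were called lower, and for 5 of 5 in KO, where 9.78% were, Bmp10 being 1 that had to be lower. Libraries of the fractions did not overlap, IP being lower, for 18.2% of tested genes in WT and 15.6% in KO. The median log2 difference of the 5 genes was -3.72 in WT and -4.14 in KO, beside 0.02 and 0.01 over all tested genes. With Bmp10 set at the limit of its depth (-4.97) it remained the lowest of the 5, so the WT median could not change.

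**Figure D1:**
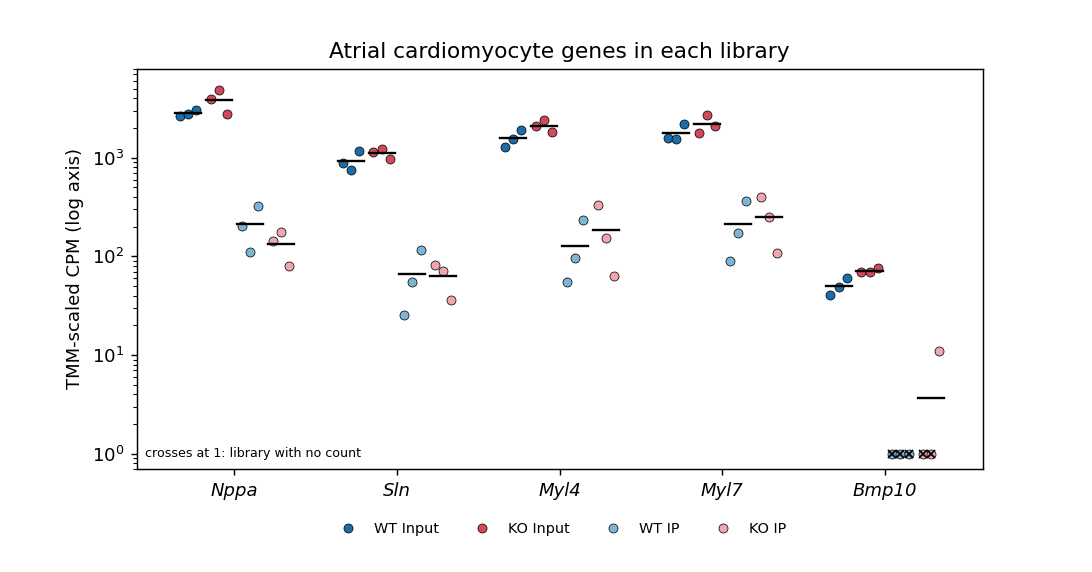
Level of each atrial gene in each library, in TMM-scaled CPM on a log axis; points are single libraries, black bars are means of 3, and crosses at 1 are libraries with no count. Every IP point lies below every Input point of the same gene, and for Nppa, Sln, Myl4 and Myl7 the WT and KO points overlap within each fraction.

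For Nppa, the natriuretic peptide gene, CPM scaled by TMM (a trimmed-mean factor for library composition) was 2631, 2753 and 3050 in WT Input and 3924, 4916 and 2801 in KO Input. In IP it was 205, 110 and 327 for WT and 143, 176 and 79.5 for KO. All 6 Input libraries stood far above all 6 IP libraries, and the lowest IP value was that of KO replicate 3. The log2 difference of IP over Input was -3.72 (SE 0.29) in WT and -4.86 (SE 0.31) in KO (edgeR's quasi-likelihood test, Benjamini-Hochberg adjusted p = 3.81e-09 and 1.37e-10). The level in IP was thus 7.60% of that in Input in WT and 3.44% in KO. From the lowest, Nppa stood 14th of 6596 genes in WT and 4th in KO.

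The atrial light chains were lower in the pulldown as well. Myl4, the essential light chain, had 1287, 1537 and 1907 CPM in WT Input and 2075, 2404 and 1838 in KO Input, against 55.2, 96.6 and 232 in WT IP and 332, 155 and 63.6 in KO IP. The groups of each fraction did not overlap, but the 6 IP values themselves spread widely, with WT replicate 3 and KO replicate 1 highest. Its log2 difference was -3.64 (SE 0.39) in WT and -3.57 (SE 0.39) in KO (edgeR, adjusted p = 2.88e-07 and 4.35e-07). Myl7, the regulatory light chain, had 1568, 1539 and 2183 CPM in WT Input and 1791, 2681 and 2110 in KO Input, against 90.6, 174 and 369 in WT IP and 399, 252 and 108 in KO IP. The same IP libraries were high and low as for Myl4. Its log2 difference of -3.07 (SE 0.36) in WT and -3.14 (SE 0.36) in KO was the smallest of the 5 in each genotype (edgeR, adjusted p = 1.03e-06 and 7.94e-07).

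Sln, the atrial inhibitor of the calcium pump, had 879, 745 and 1165 CPM in WT Input and 1139, 1219 and 968 in KO Input. In IP it had 25.5, 55.7 and 116 CPM for WT and 82.5, 71.2 and 36.6 for KO. WT IP replicate 3 was the highest IP library for Sln, and none reached the Input range. The log2 difference was -3.84 (SE 0.31) in WT and -4.14 (SE 0.31) in KO (edgeR, adjusted p = 3.81e-09 and 1.61e-09).

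Bmp10, the secreted ligand, was scarce in Input, with 17, 21 and 19 counts in the WT libraries and 19, 19 and 14 in the KO libraries, or 40.5 to 61.0 CPM and 69.2 to 76.1 CPM. The 3 WT IP libraries and KO IP replicates 1 and 2 held 0 counts, and KO IP replicate 3 held 7, or 11.1 CPM. Against a floor of 3 counts over the 3 WT IP libraries (1.57 CPM), Bmp10 was at least 31.4-fold lower in IP than in Input in WT (edgeR, adjusted p = 9.61e-06). In KO its log2 difference was -4.16 (SE 0.63, edgeR adjusted p = 5.90e-05), and that value rests on KO IP replicate 3: without it no IP count was left. The IP libraries also set the size of the other values. Without WT IP replicate 3, the WT differences were -4.14 (Nppa), -4.52 (Sln), -4.37 (Myl4) and -3.73 (Myl7), and without KO IP replicate 1 that of Myl4 in KO was -4.23, all still past the threshold.

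Counts pooled over the 3 libraries of a group give the depth behind these values. For Nppa the IP level was 7.62% of the Input level in WT (95% exact interval 6.85% to 8.45%, counting error only) and 3.39% in KO (2.97% to 3.85%). For Sln it was 6.98% in WT (5.73% to 8.43%) and 5.53% in KO (4.52% to 6.72%). For Myl4 it was 7.99% and 7.80%, and for Myl7 11.8% and 10.9%. Bmp10 stood at 5.23% in KO (2.01% to 11.6%), from 7 IP counts. Counting error is thus small for all but Bmp10, and most of the spread among IP libraries lies between libraries: the SD of the 3 IP values was 37.0% to 74.4% of their mean for Nppa, Sln, Myl4 and Myl7, against 7.67% to 27.3% in Input.

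Among abundant genes the atrial ones were at the low end. Of the 297 tested genes with a mean of at least 500 CPM over the 12 libraries, a limit set after the values were seen, Sln, Nppa, Myl4 and Myl7 had the 4 lowest log2 differences of IP over Input in WT and the same 4 in KO. Next came Rpl39, a ribosomal protein gene with a very short message, at -2.36 in WT and -2.44 in KO. Over all tested genes, 41 were called and at least 2 log2 units lower in both genotypes, the 5 atrial genes among them. Of the gene lists used below, it held 3 of 13 tested other atrial-enriched genes (Mybphl, Sbk3 and Stard10) and 2 of 4 tested fat cell markers (Cfd and Ucp1), and no gene of any other list. These 5, like Bmp10, passed the count filter through Input libraries alone, so they had to be lower in IP to be tested.

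**Figure D2:**
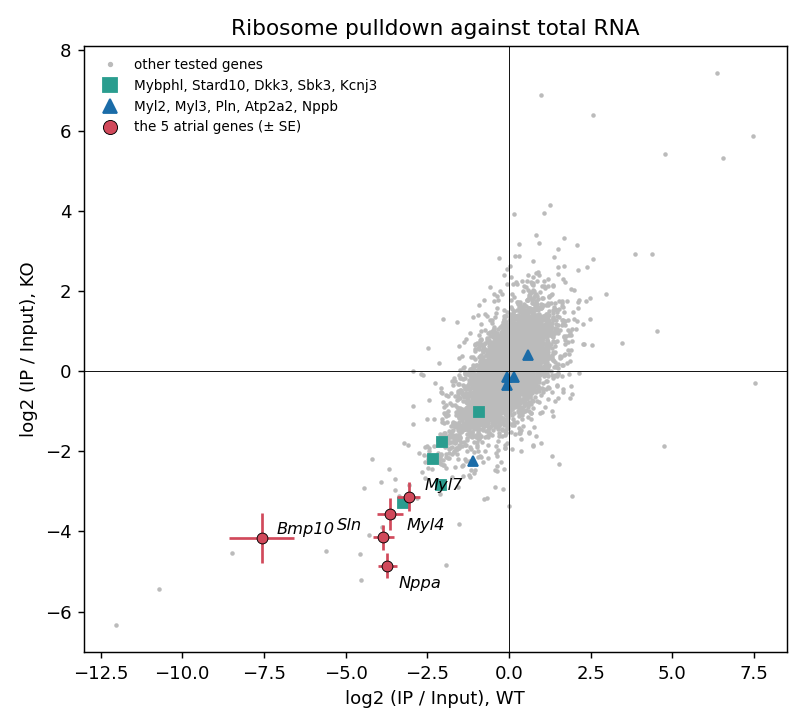
Log2 difference of IP over Input in WT (horizontal axis) and in KO (vertical axis) for 6596 tested genes in grey, with SE bars on the 5 atrial genes. Those 5 lie in the lower left at -3.07 or below on both axes. Of the genes drawn as triangles, Myl2, Myl3 and Pln lie near 0 and Atp2a2 lies above 0 in WT. Nppb, also a triangle, lies at -1.10 in WT and -2.25 in KO. The WT value of Bmp10 is a fitted one for a group with no counts.

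Transcript length moved with the fraction, so the values were also read against it. The 443 tested genes over 500 and up to 1000 nt, the class of Nppa, Myl4 and Myl7, had a median log2 difference of -0.50 in WT and -0.56 in KO, and 15 and 23 of them were at or below -2. The 1339 genes over 1000 and up to 2000 nt, the class of Sln, had medians of -0.20 and -0.21. Those over 4000 nt, the class of Bmp10, had 0.20 and 0.26. With a smooth trend on length removed, the differences were -3.23 for Nppa, -3.52 for Sln, -3.18 for Myl4 and -2.54 for Myl7 in WT, and -4.33, -3.81, -3.07 and -2.50 in KO. Bmp10, with the longest message of the 5, stood at -4.31 in KO.

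Ratios of counts within a library need no scaling between libraries. WT Input had 12.3 ± 3.06 (SD, n = 3) Myl7 counts for each 100 of Myl2, its ventricular counterpart, and KO Input had 16.2 ± 3.24. The ratio was 1.55 ± 1.03 in WT IP and 2.09 ± 1.18 in KO IP, and no IP library (0.589 to 3.17) reached the lowest Input library (9.95). For the essential light chains, Myl4 stood at 15.3 per 100 Myl3 in WT Input and 19.5 in KO Input, against 0.515 to 2.52 in WT IP libraries and 0.711 to 3.97 in KO IP libraries. For the pump inhibitors, Sln stood at 24.5 per 100 Pln in WT Input and 28.5 in KO Input, against 1.56 and 1.84 in IP. Each of these atrial genes was thus lower relative to its ventricular counterpart in IP, with Input and IP ranges apart.

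**Figure D3:**
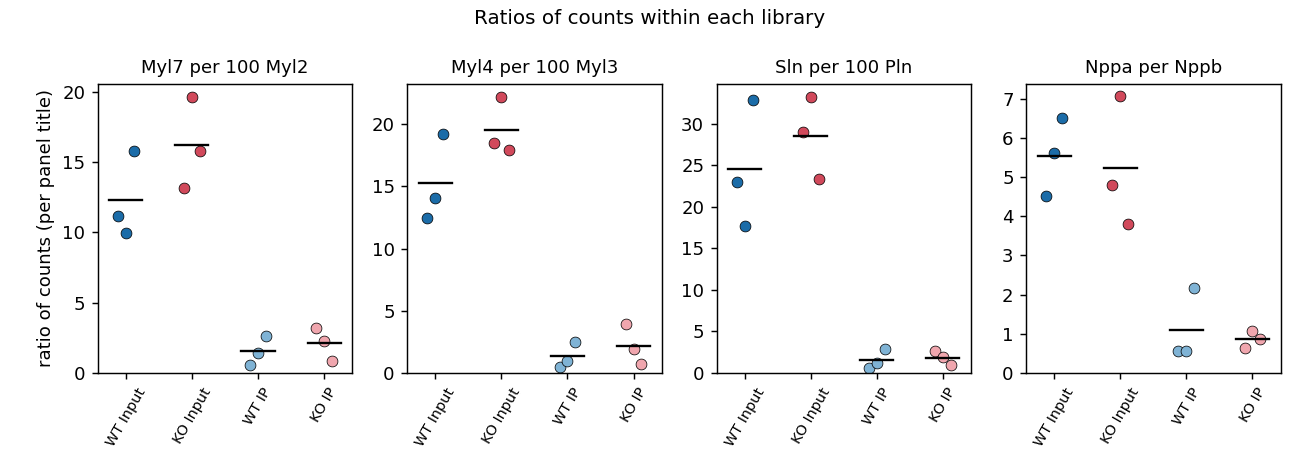
Counts of an atrial gene relative to its counterpart in the same library, as a ratio on linear axes from 0; points are libraries and bars are means of 3. For all 4 pairs the 6 IP points lie below the 6 Input points.

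The counterparts themselves had differences near 0. The log2 difference of IP over Input was -0.07 in WT and -0.15 in KO for Myl2, -0.07 and -0.35 for Myl3, and 0.15 and -0.16 for Pln, none past the threshold. Of the 7 ventricular genes listed, 6 were tested, and in each genotype 1 was lower and none higher (medians -0.17 and -0.19). That 1 was Nppb, at -1.10 (SE 0.25) in WT and -2.25 (SE 0.26) in KO (edgeR, adjusted p = 0.00357 and 9.63e-07), a gene that stressed ventricular muscle and atrial muscle both express. The Nppa to Nppb ratio was 5.55 ± 0.993 in WT Input and 5.23 ± 1.66 in KO Input, against 1.10 ± 0.937 and 0.859 ± 0.211 in IP, with no overlap between Input and IP libraries.

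Other genes known for higher expression in atria moved in both directions. Of 19 listed, 13 were tested, and in WT 5 were lower and 1 higher in IP, in KO 6 lower and 1 higher (medians -0.38 and -0.75). Mybphl, a myosin-binding protein H-like gene of atria and the conduction system, had 71.5, 99.0 and 109 CPM in WT Input against 0, 8.19 and 21.9 in WT IP, and 76.1 to 113 in KO Input against 1.59 to 29.0 in KO IP. Its log2 difference was -3.24 (SE 0.56) in WT and -3.29 (SE 0.59) in KO (edgeR, adjusted p = 0.000219 and 0.000299). Sbk3, a kinase gene, was at -2.33 and -2.20, Stard10, a lipid transfer protein gene, at -2.09 and -2.85, and Dkk3, a secreted glycoprotein gene, at -2.04 and -1.76, all past the threshold. For Mybphl, Sbk3 and Stard10 the limit of the count filter given above applies, while Dkk3 and Kcnj3 reached the filter's level in IP too. Kcnj3, a subunit of the muscarinic potassium channel, fell less (-0.93 and -1.01), and its partner Kcnj5 was not past the threshold (-0.38 and 0.21). Kcnk3, the TASK-1 potassium channel, went the other way and was higher in IP (0.62 and 0.74, edgeR adjusted p = 0.0160 and 0.00583). Pam, which amidates peptides and is abundant in atrial granules, had 0.07 in WT and -0.75 in KO, the latter called. The atrial transcription factor genes Tbx5 (0.04 and 0.66) and Nr2f2 (-0.38 and -0.76) did not pass in either genotype.

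**Figure D4:**
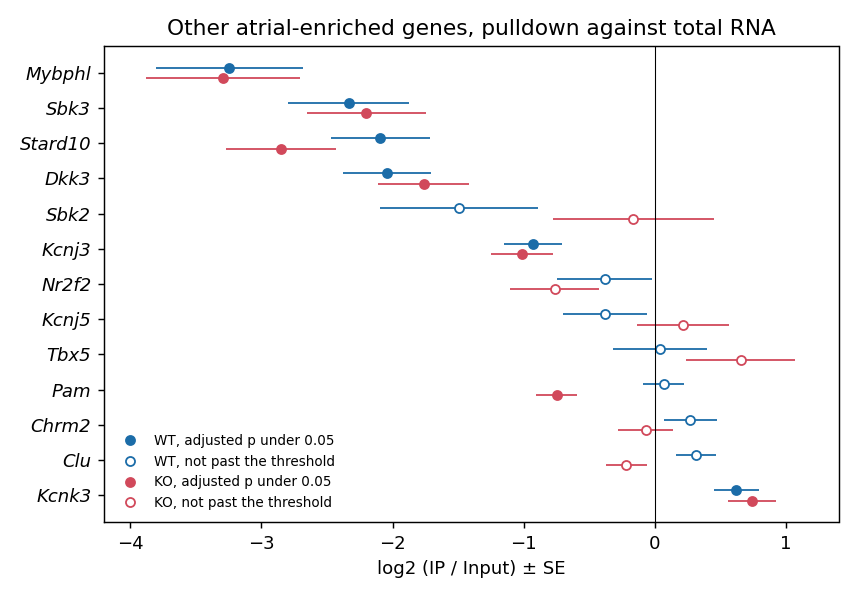
Log2 difference of IP over Input, with SE, for the 13 tested genes of the list of other atrial-enriched genes, in WT (blue) and KO (red); filled points have an adjusted p under 0.05. Mybphl, Sbk3, Stard10 and Dkk3 lie at -1.76 or lower in both genotypes, while Kcnk3 lies above 0 in both.

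Partners of the 5 gene products gave mixed values. Over all 6596 tested genes, 354 were called higher and 572 lower in IP in WT, and 438 higher and 645 lower in KO. With so few genes in each list below, counts near these shares say little about the list. In the natriuretic peptide pathway, without Nppa, 10 genes were listed and 6 tested, and Nppb was the only one called in either genotype, while Corin, the protease that activates the Nppa product, stood at 0.02 and -0.30. Among calcium store proteins that work with sarcolipin, 7 of 10 were tested and none was lower: in WT Jph2 (0.94) and Atp2a2, the pump itself (0.57), were higher, and in KO Jph2 (0.93) and Ryr2 (0.55). Of 11 myosin and regulatory partners tested, 2 were higher and 4 lower in WT, 4 higher and 3 lower in KO. Those lower in both were Myl9, Myl6 and Myl12a, light chains of smooth muscle and non-muscle myosin (Myl9 at -1.64 and -2.39, tested through its Input counts alone), and Mybpc3, the cardiac thick filament protein, was higher (1.14 and 0.57).

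For BMP10, 12 of 16 receptors, targets and modulators were tested, with 1 higher and 1 lower in WT and 1 higher and 3 lower in KO. Among those tested, Smad1 and Id2 passed the filter through Input libraries alone. Bmpr2, its type II receptor, was higher in both (1.29 and 0.92), and Id3, a transcriptional target, was lower in both (-1.06 and -0.94). Of 8 cardiac transcription factor genes tested, Srf (1.66) and Tbx20 (0.83) were higher in WT, and Srf in KO (edgeR, adjusted p = 0.0147), and none was lower.

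Markers of other cell types were read in the same fractions, and their part in the result was not tested. Of 4 fat cell markers tested (7 listed), 2 were lower in WT and 3 in KO, with medians of -1.94 and -2.10. Over all tested genes, 8.67% were called lower in WT and 9.78% in KO. To the 2 in WT, Cfd and Ucp1, the limit of the count filter given above applies. The summed level of the 7 was 1570 to 2928 CPM in Input and 1042 to 1625 in IP, most of it Fabp4, which endothelium also expresses. Adipoq, a defining marker, had 5.44 to 106 CPM in Input and 0 to 6.73 in IP, and Plin1 had 0 to 38.5 and 0 to 3.18. Lep had only 4 counts in total, all in WT Input, and none in KO Input or in IP. Smooth muscle markers had 2 of 4 lower in WT and 1 in KO (medians -1.44 and -0.84), among them Myl9, tested through its Input counts alone. Endothelial markers had 1 of 8 higher and 1 lower in WT, and 1 higher and 3 lower in KO. Fibroblast markers had none of 7 called in WT and 2 lower in KO (medians 0.32 and 0.32), and none of 5 macrophage and none of 5 erythroid markers was called in either genotype. Of 2 tested endocardial markers none was called, and of 2 mesothelial markers 1 was lower in WT and none in KO. Both tested mesothelial markers, Msln and Upk3b, passed the filter through Input libraries alone, which favours lower values in IP. Of 2 skeletal muscle markers none was lower in WT and 1, Myl1, in KO. No marker of T cells or of nerve and glia passed the filter, and their summed level was at most 6.69 and 44.2 CPM in any library.

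Of 6 lung epithelium markers listed, 1 was tested, Scgb1a1, which passed the filter through Input libraries alone. Sftpc and Sftpb had no count in any library, and Sftpa1, Ager and Sftpd had 4, 3 and 2 counts in total. Scgb1a1 had 104, 8 and 963 counts in WT Input, 2, 1 and 12 in KO Input and 0 in all 6 IP libraries. WT Input replicate 3, with the most, was the highest WT Input library for all 5 atrial genes. Without it the IP over Input differences in WT were -3.66 (Nppa), -3.66 (Sln), -3.48 (Myl4) and -2.90 (Myl7). In KO Input the library with the most, replicate 3, was the highest for Bmp10 and the lowest for Nppa, Sln and Myl4. The part of lung tissue in these values was not tested.

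Between genotypes, none of the 5 atrial genes was past the threshold in total RNA, where 0.182% of tested genes were called in either direction. All 5 had a positive log2 difference (KO over WT), between 0.26 and 0.52, with a median of 0.42 beside -0.01 over all genes. Nppa was at 0.47 (SE 0.26), Myl4 at 0.42 (SE 0.34), Myl7 at 0.32 (SE 0.33) and Sln at 0.26 (SE 0.26), each with KO and WT libraries that overlapped. Bmp10, at 0.52 (SE 0.47), was the only one of the 5 whose 3 KO Input libraries were all above the 3 WT libraries, which held for 6.17% of tested genes, and its values rest on 14 to 21 counts a library. Adjusted p values ran from 0.739 to 0.890 (edgeR's quasi-likelihood test, Benjamini-Hochberg), and 469 of 6596 genes had an unadjusted p under 0.05 in that comparison, none of the 5 among them.

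The summed share of counts gave a similar picture with a limit. The 3 KO Input libraries (0.846% to 1.06%) lay above the 3 WT ones (0.607% to 0.731%), and with globin counts left out the highest WT library, replicate 3, rose to 0.848% while the lowest KO library was 0.861%. After TMM scaling the summed levels overlapped, at 6406 to 8367 CPM in WT and 7794 to 11290 CPM in KO. With 3 libraries in each group an exact permutation test could not give a p below 0.10, so none was run.

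In ribosome-bound RNA the 5 genes did not share a direction between genotypes, and none was past the threshold, where 0.091% of tested genes were called and 341 had an unadjusted p under 0.05. Nppa had -0.68 (SE 0.30), with overlapping libraries and an unadjusted p of 0.0307 (edgeR, adjusted p = 0.923). Without WT IP replicate 3 it was -0.24. Myl4 was at 0.49 (SE 0.40), Myl7 at 0.25 (SE 0.36) and Sln at -0.04 (SE 0.35), all with overlapping libraries and each of either sign as single libraries were left out. For Bmp10 the comparison rests on the 7 counts of KO IP replicate 3 against none in WT.

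The difference of the IP to Input ratio between genotypes was tested as an interaction, for which 0.091% of genes were called and none of the 5 was. Nppa was the lowest of the 5, at -1.14 (SE 0.39; edgeR, unadjusted p = 0.00719, adjusted p = 0.528), from a positive difference in Input and a negative one in IP. It passed only in the fit with no filter on low counts (adjusted p = 0.0177), and over all other settings its value lay between -1.46 and -0.71. Nppb, its neighbour and homolog, had a value of the same size, -1.15 (SE 0.36; edgeR, unadjusted p = 0.00381, adjusted p = 0.424). Sln (-0.30, SE 0.44), Myl4 (0.07, SE 0.52) and Myl7 (-0.06, SE 0.49) lay near 0, and Bmp10 (3.41, SE 1.54, adjusted p = 0.699) again rests on 1 library.

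**Figure D5:**
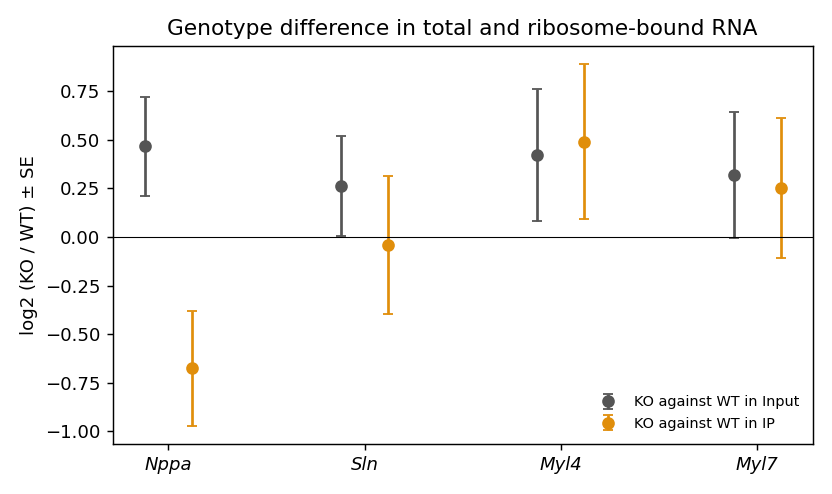
Log2 difference of KO over WT, with SE, in Input (grey) and in IP (orange) for Nppa, Sln, Myl4 and Myl7; Bmp10 is left out because its IP value rests on 1 library with 7 counts. Nppa lies above 0 in Input and below 0 in IP, Myl4 and Myl7 are positive in both, and no value passed the threshold.

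Proportions among the atrial genes were also read within libraries. The Myl4 to Myl7 count ratio was 0.898 ± 0.0913 (SD, n = 3) in WT Input and 0.976 ± 0.159 in KO Input, and 0.599 ± 0.0379 in WT IP and 0.678 ± 0.134 in KO IP, with no overlap between Input and IP within a genotype. The Nppa to Myl7 ratio was 1.62 ± 0.202 in WT Input and 1.78 ± 0.434 in KO Input. In IP it was 2.27, 0.632 and 0.886 in the WT libraries and 0.358, 0.698 and 0.735 in the KO libraries, which overlap, the WT mean resting on replicate 1. Without division by transcript length, the mean level in WT Input was 2812 CPM for Nppa, 1764 for Myl7, 1577 for Myl4, 930 for Sln and 50.3 for Bmp10. The lowest WT Input library for Nppa (2631 CPM) was above the highest for Myl7 (2183 CPM). The SD of Myl7 in WT Input was 20.6% of its mean.

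For Sln, Myl4, Myl7 and Nppa, but not for Bmp10, most of the 3 genes with the most similar profile over the 12 libraries were other members. Likeness was the root-mean-square difference of log2 CPM, each gene centred on its own mean, over 5865 genes with at least 20 CPM, and the Input and IP groups set most of it. For Sln the nearest 3 were Myl4 (0.34), Myl7 (0.44) and Nppa (0.53), beside a median of 2.12 over all candidates. For Myl4 they were Myl7 (0.32), Sln (0.34) and Mybphl (0.46), and for Myl7 Myl4 (0.32), Mybphl (0.37) and Sln (0.44). Among the genes nearest to Myl7, Nppa came 13th and Bmp10 37th. Nppa was nearest to Sln (0.53), Myl4 (0.69) and Arl5c (0.77). Bmp10, with few counts, was nearest to Clk1 (0.68), Lgals4 (0.70) and Rpl39 (0.77), and Sln came 8th.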

How the data were processed

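Gene expression was measured in 12 libraries, 3 each of Input and IP from WT and Rpl3l-/- hearts. The authors deposited 1 whole-number count per gene and library. Per the submitters' processing notes the build was GRCm38 and the tools named were minimap2 2.14 and DESeq2 1.34.0, with no role given, and the counting rule and its use of strand are not given in the sources used here. Without strand, reads of a gene and its antisense partner cannot be told apart. Names, loci and lengths (longest coding transcript) come from GENCODE M21, which matched 55141 of 55401 IDs, and promoter stretches from RefSeq (GRCm38.p6), which matched 4 of the 5 genes; that of Sln is not shown.

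The main test was the quasi-likelihood test of edgeR 4.0.16 (R 4.3.3, with limma 3.58.1). It used filterByExpr with a minimum count of 10, TMM factors, a fit of all 12 libraries with 1 mean per group, 5 contrasts, Benjamini-Hochberg adjustment over 6596 genes and a threshold of 0.05. The SE is the log2 fold change divided by the square root of F. The script was tested on simulated data. Intervals of pooled counts are exact and cover counting error only. A fold against a group with no counts uses a floor of 3 counts over the group.

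The members and 19 gene lists were chosen with earlier results of these data known. Named genes are the 5 members, up to 3 called genes per list and contrast (or the 1 with the smallest p), Rpl3l, Nppb, Corin, Atp2a2, Pln, Myl2, Myl3, Tbx5 and Nr2f2, and the 3 nearest genes of each member; others are said to be chosen later. Of the lists' genes 1 had no ID and 1 had several and was left out. Alternatives were DESeq2 size factors and test (1.42.0), library totals, no and a stricter count filter (30 counts in 3 libraries), limma-voom, a block for the replicate number, fits without the groups not compared, thinning to 169359 counts, globin genes left out, a length trend removed (loess span 0.5) and libraries left out.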

Additional observations from a re-analysis of the deposited data

How the results depend on the processing

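All 5 atrial genes stayed past the threshold and lower in IP than in Input, in WT and in KO, in every alternative that gave a test, though Bmp10 was tested through its Input counts alone. The others' log2 values ran from -4.14 to -3.23 (Nppa), -4.52 to -3.41 (Sln), -4.37 to -3.18 (Myl4) and -3.73 to -2.54 (Myl7) in WT, and from -5.14 to -4.33, -4.31 to -3.81, -4.23 to -3.07 and -3.57 to -2.50 in KO. None was called between genotypes in Input or IP in any alternative. With library totals as the scale, the all-gene median was 0.11 (KO over WT in IP), 0.11 (IP over Input, WT) and 0.15 (KO). In the interaction 1 atrial gene, Nppa, was called with no count filter. Small values changed sign. For KO over WT in IP, Sln was 0.0554 with library totals, 0.15 with limma-voom and 0.42 with thinned libraries, and with 1 library left out in turn ran from -0.46 to 0.65, Myl4 from -0.19 to 1.24 and Myl7 from -0.20 to 0.93. For the interaction, Myl4 was -0.0075 with limma-voom, -0.12 with thinned libraries and -0.18 without both Input replicates 3, and Sln was 0.18 with thinned libraries. With 1 library left out in turn the interaction ran from -0.72 to 0.39 (Sln), -0.60 to 0.82 (Myl4) and -0.51 to 0.61 (Myl7). The cause was not tested. Bmp10 could not be given a value for KO over WT in IP or for the interaction without KO IP replicate 3.

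Counts of all genes called moved more. For KO over WT in Input 12 became 77 with no count filter, 5 with the stricter filter, 7 thinned, 6 without both Input replicates 3, 4 when WT Input replicate 1 was left out and 5 when KO Input replicate 3 was. For IP, 6 became 55 with no filter, 10 with DESeq2, and 2, 3 and 3 without WT IP replicates 1 and 2 and KO IP replicate 3. For IP over Input, 926 in WT became 476 thinned and 602 without WT Input replicate 1, and 1083 in KO became 658 thinned. For the interaction, 6 became 37 with no filter, 1 with limma-voom, 0 thinned, 2 without both Input replicates 3, 3 without WT IP replicate 3 and 1 without WT Input replicate 1. With thinning the fit held 3177 genes, so fewer could be called.

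Replicate numbers showed no pairing: correlations of same-numbered libraries ran from -0.115 to 0.0423, and in 0 of 18 cases did a library correlate best with its own number. With the replicate number as a block the 5 genes remained called in both IP over Input comparisons (Nppa -3.71 in WT), and the Myl7 interaction was 0.0062. Depth limits Bmp10 most, since its Input values rest on 14 to 21 counts a library.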
